A study of Homo sapiens with 6 samples.

Results

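The proteasome is the large protease that degrades ubiquitin-tagged proteins in the cytosol and nucleus. Its transcripts were followed in T47D cells, an established line from a luminal human breast cancer that carries the estrogen receptor, after inhibition of PI3 kinase. The 42 genes described were those on the array whose current symbol is PSMA to PSMG followed by a number, out of 19775 genes measured, each read by the brightest of the probe sets annotated to that gene alone. They comprised 17 genes of the core (PSMA and PSMB), 17 of the cap (PSMC and PSMD), 3 activators (PSME), 4 core assembly factors (PSMG) and the inhibitor PSMF1. The reference gene table holds 48 protein-coding genes of these names. PSMA6 and PSME2 were left out because their probe sets are annotated to more than one gene, and PSMB11, PSMC5, PSMD7 and PSMD13 were not analysed here. PSMC3IP, a recombination factor whose symbol starts in the same way, was not counted as a proteasome gene.

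The 6 arrays came from 3 samples of T47D cells treated with GDC-0941, an inhibitor of the class I PI3 kinases, for 6 hours, and from 3 samples of control T47D cells, labelled with no agent. The dose is printed as 1 mM, a unit that is uncertain because a micro sign may have been lost, and a solvent in the controls is not mentioned. All cells grew in serum-containing DMEM with added amino acids. Separate cultures are not stated for the replicates, so every p-value reflects variation among these 6 samples only, and that variation may be technical. All values are log2 signals as deposited after RMA normalization, which sets the arrays to a common distribution, so a difference is read against the rest of the transcripts. In bulk RNA, fewer cells of a type and less RNA per cell cannot be told apart.

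Across probe sets, the correlation of array pairs was 0.9970 to 0.9983 inside a group and 0.9917 to 0.9942 for a treated with a control array. The 7 luminal markers ESR1, PGR, GATA3, FOXA1, KRT8, KRT18 and KRT19 lay between 11.57 and 14.36 on every array, while PTPRC, KRT5, KRT14 and VIM lay between 6.00 and 8.27. COL1A1, a fibroblast marker, was the exception among the 5 markers of other cells: it lay between 10.90 and 11.03 under GDC-0941, against 10.29 to 10.47 in controls, and was higher after GDC-0941 (log2 difference 0.56, adjusted p = 6.53e-05 in limma), and its part in the results below was not tested. GDC-0941 replicate 2 stood apart at high signal. Among the 4159 genes with a mean log2 signal of 10 or more, it was the lowest of the 3 treated arrays for 82.6%, against 21.2% of the 9150 genes under 8. It was the lowest treated array for all 42 proteasome genes. The count and the median over the 42 genes are therefore also given without it, and calls lost without it are named. Class medians are given as ranges over single arrays left out. Control replicate 3 was the highest control array for 35 of the 42 genes. It was so for 67.9% of all genes with a mean of 10 or more and for 27.8% of those under 8.

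The core particle is a barrel of stacked rings. Alpha subunits form the outer rings and gate the entrance, and beta subunits form the inner rings, where PSMB5, PSMB6 and PSMB7 carry the proteolytic sites. The cap binds ubiquitin chains, removes them and unfolds the substrate with a ring of ATPases, and other activators can dock in its place. In mammalian cells proteasome genes are known to be raised together by NFE2L1 when the proteasome is inhibited, and mTORC1, a kinase complex that receives signals from PI3 kinase, has been linked in mouse and human cells to their expression.

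After GDC-0941, 31 of the 42 proteasome genes fell and none rose (limma, adjusted p under 0.05 over all 19775 genes). Over all genes 15.6% were called lower and 12.1% higher, so the 73.8% of proteasome genes called lower stood above the background share. The median log2 difference of the 42 genes was -0.31, which is 1.24-fold lower, beside -0.02 over all genes. The falls were modest: 3 genes fell by at least 1.5-fold (PSME3, PSMG3 and PSMB10), and the other 28 by 1.14-fold to 1.49-fold. In 35 of the 42 genes all 3 treated arrays lay below all 3 controls, an arrangement found in 24.0% of all genes, and in the other 7 the groups overlapped. Signal level moved with the share of calls: 25.2% of genes above the median level were called lower when these were fitted alone, and 29.4% of genes with a mean of 10 or more were called lower in the fit on all genes. Its part in the result was not tested. Fitted with the genes above the median level, 32 proteasome genes were lower. Of the 42 proteasome genes 38 had a mean of 10 or more, and 28 of these 38 fell. Without GDC-0941 replicate 2, 28 of the 42 genes fell, none rose and the median was -0.27.

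**Figure D1:**
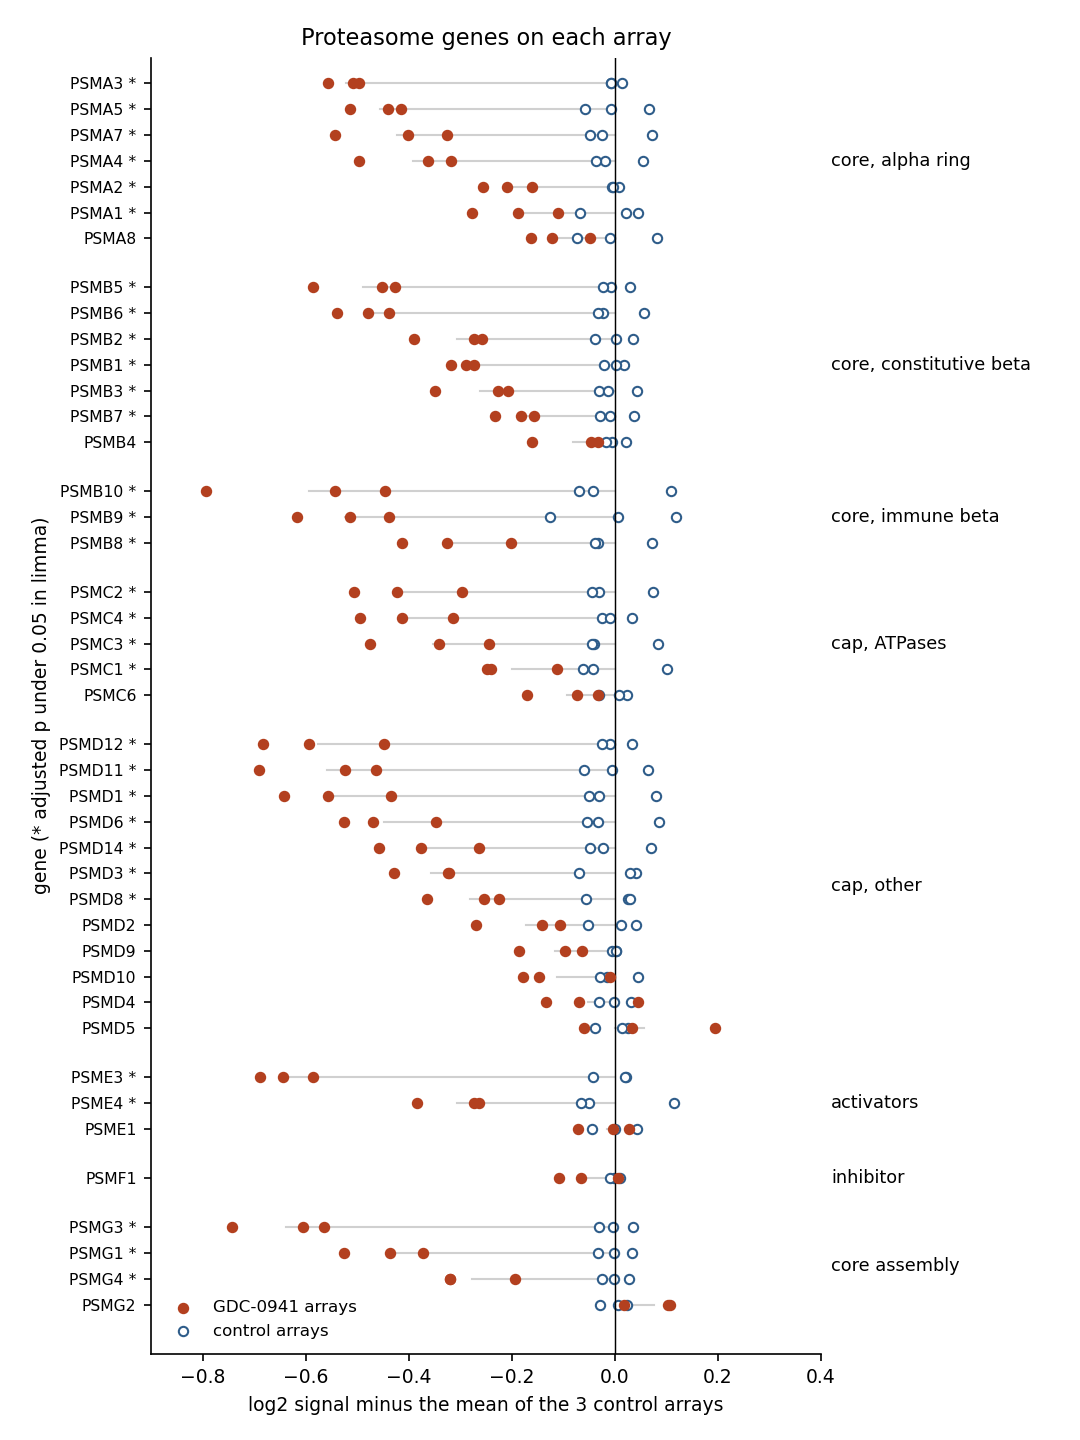
Log2 signal of each proteasome gene on each array, minus the mean of the 3 control arrays (filled points, 3 GDC-0941 arrays; open points, 3 control arrays; grey lines run to the GDC-0941 mean; an asterisk marks an adjusted p under 0.05 in limma). Treated arrays lie to the left of the controls for 35 of 42 genes, and overlap them for PSMA8, PSMD4, PSMD5, PSMD10, PSME1, PSMF1 and PSMG2.

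Promoters are shown as examples for 4 genes that fell, one per class, and for PSME1, which did not pass. Each of them holds a motif marked below, which is not so for every gene that fell. The promoters of PSMB10, PSMD11, PSMB8, PSMG4, PSMA1 and PSMC1, which also fell, hold neither marked motif. The sequences are RefSeq promoters of GRCh38.p14, 5′ to 3′ on the gene's own strand, from 250 bases before the gene's start to 50 after it. Capitals mark matches on either strand to TGACNNNGC, the core of the antioxidant response element that NFE2L1 and NFE2L2 bind, and to CCAAT, the box bound by NF-Y. They lie at chr17:42833147-42833446 (plus strand) for PSME3, chr21:39183402-39183701 (minus strand) for PSMG1, chr17:67366528-67366827 (minus strand) for PSMD12, chr14:58244593-58244892 (plus strand) for PSMA3 and chr14:24135944-24136243 (plus strand) for PSME1.
PSME3: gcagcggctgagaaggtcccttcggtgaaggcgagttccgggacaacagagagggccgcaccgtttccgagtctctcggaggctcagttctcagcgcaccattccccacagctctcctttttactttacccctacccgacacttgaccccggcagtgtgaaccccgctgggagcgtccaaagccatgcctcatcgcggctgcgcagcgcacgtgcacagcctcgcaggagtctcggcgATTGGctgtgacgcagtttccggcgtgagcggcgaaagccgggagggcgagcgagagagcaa
PSMG1: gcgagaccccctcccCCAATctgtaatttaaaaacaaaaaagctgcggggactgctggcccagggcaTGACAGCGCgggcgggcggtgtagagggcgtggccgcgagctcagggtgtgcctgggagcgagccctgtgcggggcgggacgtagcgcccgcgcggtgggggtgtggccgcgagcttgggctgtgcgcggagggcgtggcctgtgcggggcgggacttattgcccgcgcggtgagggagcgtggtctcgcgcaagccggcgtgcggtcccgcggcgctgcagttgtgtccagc
PSMD12: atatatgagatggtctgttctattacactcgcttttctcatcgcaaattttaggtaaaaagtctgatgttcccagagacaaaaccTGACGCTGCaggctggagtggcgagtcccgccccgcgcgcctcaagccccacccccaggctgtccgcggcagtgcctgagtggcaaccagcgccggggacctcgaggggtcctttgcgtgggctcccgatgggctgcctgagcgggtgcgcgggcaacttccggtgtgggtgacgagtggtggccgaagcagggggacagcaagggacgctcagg
PSMA3: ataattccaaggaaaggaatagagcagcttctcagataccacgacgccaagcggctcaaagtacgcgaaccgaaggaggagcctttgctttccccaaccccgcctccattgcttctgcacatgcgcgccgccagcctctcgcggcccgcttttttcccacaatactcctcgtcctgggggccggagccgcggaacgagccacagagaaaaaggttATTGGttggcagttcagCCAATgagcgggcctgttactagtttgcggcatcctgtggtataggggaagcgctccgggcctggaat
PSME1: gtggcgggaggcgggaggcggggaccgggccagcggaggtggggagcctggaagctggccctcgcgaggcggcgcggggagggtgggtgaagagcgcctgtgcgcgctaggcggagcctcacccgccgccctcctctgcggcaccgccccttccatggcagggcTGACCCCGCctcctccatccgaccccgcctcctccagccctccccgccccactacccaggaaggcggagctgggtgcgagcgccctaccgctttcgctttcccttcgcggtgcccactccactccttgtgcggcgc
PSMA3 holds a CCAAT box on each strand, 35 and 18 bases before the start, and PSME3 holds one 12 bases before it. PSMG1 has both motifs, and PSMD12 and PSME1 have the antioxidant element alone, 165 and 86 bases before the start.

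Of the 42 genes, 36 had a promoter of this length in the RefSeq table, and 6 motifs were searched on both strands, counting a gene with several listed starts once if any held a match and letting motifs overlap. TGACNNNGC was found in 13 of the 36 genes (36.1%), beside 18.4% of the 15384 measured genes with a promoter. CCGGAAG, an ETS factor site, was found in 12 (33.3%, beside 16.6%), CCAAT in 17 (47.2%, beside 41.7%) and the E-box CACGTG in 3 (8.33%, beside 10.9%). Neither the cyclic AMP element TGACGTCA (3.1% of all genes) nor the heat shock element GAANNTTC (7.39%) was found in any of the 36. CCAAT was present in 16 of the 26 genes that fell and in 1 of the 10 that did not pass, PSMD10. TGACNNNGC was present in 9 of the 26 and in 4 of the 10. These counts describe letters in these windows, and no test was made on them.

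The alpha ring fell in 6 of 7 genes, with a median log2 difference of -0.39. This count and those of the groups below are to be read against the 15.6% of all genes called lower. PSMA3 measured 12.53, 12.47 and 12.52 on the GDC-0941 arrays, against 13.04, 13.02 and 13.02 on the controls. The groups were far apart relative to their spread, and PSMA3 was 1.44-fold lower (log2 difference -0.52 ± 0.05 SE, adjusted p = 2.91e-05 in limma). Its other 2 probe sets, both dimmer than the median of all probe sets, did not pass (-0.10 and 0.12), and the mean of all 3 lost the call (-0.17, adjusted p = 0.0637). PSMA5 measured 10.65, 10.58 and 10.68 under GDC-0941, against 11.08, 11.03 and 11.16 in controls, and was 1.37-fold lower without overlap (-0.46 ± 0.06 SE, adjusted p = 0.000143). PSMA7 measured 12.36, 12.14 and 12.28 under GDC-0941, against 12.63, 12.66 and 12.76 in controls, and was 1.34-fold lower (-0.42 ± 0.07 SE, adjusted p = 0.000604). PSMA4 (-0.39), PSMA2 (-0.21) and PSMA1 (-0.19) also fell. The call of PSMA1 was lost without GDC-0941 replicate 2 or 3 or without control replicate 1 or 3, and that of PSMA2 without GDC-0941 replicate 3 or control replicate 1. The other probe set of PSMA2, which is dimmer, did not pass (-0.14, adjusted p = 0.211 in limma over all probe sets). PSMA8, the alpha subunit of testis proteasomes, measured 4.85, 4.74 and 4.78 under GDC-0941, against 4.89, 4.82 and 4.98 in controls. It was the one proteasome gene below the median signal of all probe sets, 7.36, and its groups overlapped.

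In the constitutive beta ring 6 of 7 genes fell, with a median of -0.29. The 3 treated arrays lay below the controls in all 7, an arrangement found in 24.0% of all genes. PSMB5, which carries the chymotrypsin-like site that bortezomib blocks, measured 11.60, 11.46 and 11.62 under GDC-0941, against 12.04, 12.03 and 12.08 in controls. PSMB6, which carries the caspase-like site, measured 11.78, 11.72 and 11.82 under GDC-0941, against 12.23, 12.22 and 12.31 in controls. Both were 1.40-fold lower (log2 difference -0.49 ± 0.06 SE each), with adjusted p = 0.000106 for PSMB5 and 7.67e-05 for PSMB6 in limma. PSMB7, which carries the trypsin-like site, measured 12.75, 12.67 and 12.72 under GDC-0941, against 12.87, 12.89 and 12.94 in controls. Its fall was smaller, 1.14-fold (-0.19 ± 0.06 SE, adjusted p = 0.0221), and its call was lost without GDC-0941 replicate 2 or 3 or without control replicate 2 or 3.

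The other beta subunits have no proteolytic site of their own. PSMB2 measured 11.65, 11.53 and 11.67 under GDC-0941, against 11.93, 11.89 and 11.96 in controls, a log2 difference of -0.31 ± 0.06 (SE, adjusted p = 0.00208 in limma). The other 3 of its 4 probe sets did not pass, and the call was lost with their mean (-0.13, adjusted p = 0.081) or with unmarked probe sets first (-0.19, adjusted p = 0.0698). PSMB1 (-0.29) and PSMB3 (-0.26) fell as well. PSMB4 measured 12.998, 12.87 and 12.98 under GDC-0941, against 13.03, 13.01 and 13.05 in controls. Its arrays were separated by a narrow gap and it did not pass (-0.08 ± 0.06 SE, adjusted p = 0.367).

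Immune cells and cells exposed to interferon-gamma exchange the 3 catalytic beta subunits for PSMB8, PSMB9 and PSMB10, and all 3 fell, with a median of -0.52. PSMB10, which takes the place of PSMB7, measured 8.24, 7.89 and 8.14 under GDC-0941, against 8.64, 8.62 and 8.79 in controls. The treated arrays varied more here than for any other proteasome gene (SD 0.18), but they lay below the controls, and PSMB10 was 1.51-fold lower (log2 difference -0.59 ± 0.09 SE, adjusted p = 0.000319 in limma). PSMB9, which takes the place of PSMB6, measured 8.77, 8.60 and 8.70 under GDC-0941, against 9.09, 9.22 and 9.33 in controls, 1.44-fold lower without overlap (-0.52 ± 0.07 SE, adjusted p = 0.000246). PSMB8, which takes the place of PSMB5, measured 10.13, 9.91 and 10.00 under GDC-0941, against 10.29, 10.29 and 10.40 in controls, 1.24-fold lower (-0.31 ± 0.07 SE, adjusted p = 0.004). The constitutive subunits PSMB5, PSMB6 and PSMB7 had a median of -0.49, and whether the sets differ was not tested.

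The ATPase ring of the cap fell in 4 of 5 genes, with a median of -0.35. PSMC2 measured 11.72, 11.51 and 11.59 under GDC-0941, against 11.99, 11.97 and 12.09 in controls, 1.33-fold lower (log2 difference -0.41 ± 0.07 SE, adjusted p = 0.000722 in limma). Its other 2 probe sets did not pass, and the call was lost with the mean of all 3 (-0.14, adjusted p = 0.0594) or with unmarked probe sets first (-0.05, adjusted p = 0.595). PSMC4 measured 10.80, 10.62 and 10.71 under GDC-0941, against 11.09, 11.11 and 11.15 in controls, also 1.33-fold lower (-0.41 ± 0.06 SE, adjusted p = 0.000403). PSMC3 measured 11.40, 11.17 and 11.30 under GDC-0941, against 11.60, 11.60 and 11.73 in controls, 1.28-fold lower (-0.35 ± 0.07 SE, adjusted p = 0.0025). In these 3 genes the groups did not overlap and GDC-0941 replicate 2 was the lowest array. PSMC1 fell by 0.20 on the log2 scale with an adjusted p of 0.0406, a call lost without GDC-0941 replicate 2 or 3 or without control replicate 2 or 3. PSMC6 measured 11.88, 11.74 and 11.84 under GDC-0941, against 11.93, 11.88 and 11.92 in controls, and did not pass (-0.09 ± 0.06 SE, adjusted p = 0.297).

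Of the other 12 cap genes 7 fell, with a median of -0.32. PSMD12, a scaffold subunit of the lid, measured 11.47, 11.23 and 11.32 under GDC-0941, against 11.91, 11.89 and 11.95 in controls, 1.49-fold lower (log2 difference -0.58 ± 0.07 SE, adjusted p = 6.65e-05 in limma). PSMD11, another lid subunit, measured 11.49, 11.26 and 11.43 under GDC-0941, against 11.89, 11.95 and 12.02 in controls, 1.47-fold lower (-0.56 ± 0.07 SE, adjusted p = 0.000102). PSMD1, a large scaffold of the base, measured 11.21, 11.003 and 11.09 under GDC-0941, against 11.62, 11.59 and 11.73 in controls, 1.46-fold lower (-0.54 ± 0.07 SE, adjusted p = 0.000106). In none of the 3 did a treated array reach the lowest control.

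Grouped by place in the cap, a grouping made after the values were seen, all 6 measured lid genes with a PSM symbol fell, with a median of -0.41, while SEM1, the lid subunit under another name, did not pass (-0.22, adjusted p = 0.055 in limma). Beside PSMD12 and PSMD11 those that fell were PSMD6 (-0.45), PSMD14, the enzyme that removes ubiquitin chains (-0.37), PSMD3 (-0.36) and PSMD8 (-0.28). Of the 3 measured base subunits with a PSM symbol other than ATPases, PSMD1 fell, while PSMD2 (-0.17, adjusted p = 0.0592 in limma) and PSMD4 did not pass. PSMD4, a ubiquitin receptor, measured 12.22, 12.04 and 12.10 under GDC-0941, against 12.17, 12.14 and 12.20 in controls, with overlapping groups and a log2 difference of -0.05 ± 0.06 (SE, adjusted p = 0.602). ADRM1, the further base subunit, fell by 0.76. The 3 PSM-named chaperones that help the base assemble and are not part of the finished particle, PSMD5 (0.06), PSMD9 (-0.12) and PSMD10 (-0.11), did not pass either, with adjusted p from 0.165 to 0.621, but PAAF1, a base chaperone under another name, fell by 0.29. PSMD5, PSMD9 and PSMD10 had differences above zero when arrays were set to their hybridisation controls (described below). No test was made of the difference between lid, base and chaperones.

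**Figure D2:**
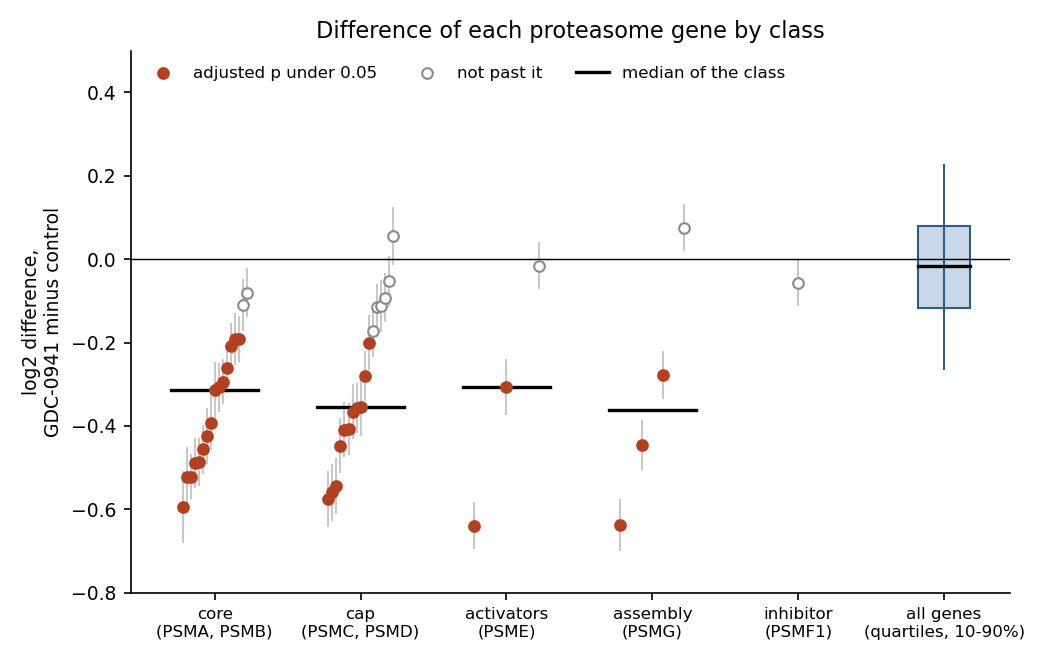
Log2 difference, GDC-0941 minus control, of each proteasome gene by class (points; bars, SE; filled, adjusted p under 0.05 in limma; black lines, class medians) beside the quartiles and the central range of all 19775 genes. The medians of the 4 classes with more than one gene lie from -0.36 to -0.31, and each class holds members that did not pass.

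Activators dock on the core in place of the cap or opposite it. PSME3, the nuclear activator that opens the core without using ATP or ubiquitin, had the largest fall of the 42 genes. It measured 11.47, 11.37 and 11.41 under GDC-0941, against 12.08, 12.01 and 12.07 in controls, 1.56-fold lower (log2 difference -0.64 ± 0.06 SE, adjusted p = 1.06e-05 in limma). Its groups were apart by many times their SD of 0.05 under GDC-0941 and 0.04 in controls. All 4 of its probe sets fell, by 0.64 to 0.74 on the log2 scale. PSME4, the large single-chain activator, measured 9.95, 9.83 and 9.95 under GDC-0941, against 10.17, 10.15 and 10.33 in controls, 1.24-fold lower without overlap (-0.31 ± 0.07 SE, adjusted p = 0.00431). PSME1, a subunit of the interferon-inducible cytosolic activator, measured 12.04, 11.95 and 12.01 under GDC-0941, against 11.97, 12.02 and 12.06 in controls. Its groups overlapped (-0.02 ± 0.06 SE, adjusted p = 0.886). PSMF1, an inhibitor of the core in vitro, measured 10.93, 10.81 and 10.86 under GDC-0941, against 10.92, 10.91 and 10.93 in controls, also with overlap (-0.06 ± 0.06 SE, adjusted p = 0.531). One of its other probe sets was lower, by 0.22 (adjusted p = 0.0349 over all probe sets).

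The PSMG genes encode chaperones of core assembly, PSMG1 with PSMG2 as one pair and PSMG3 with PSMG4 as the other. PSMG1 measured 10.97, 10.81 and 10.90 under GDC-0941, against 11.34, 11.31 and 11.37 in controls, 1.36-fold lower (log2 difference -0.44 ± 0.06 SE, adjusted p = 0.000176 in limma). Its partner PSMG2 measured 11.80, 11.71 and 11.80 under GDC-0941, against 11.70, 11.67 and 11.72 in controls. PSMG2 overlapped and did not pass (0.08 ± 0.06 SE, adjusted p = 0.377). It was called higher after centring on hybridisation controls (0.25, adjusted p = 0.0373), as were 28.8% of all genes. It was also called higher with array weights (0.11, adjusted p = 0.0246). Their estimate stopped before full convergence, and more genes were called in all than in the reported fit.

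PSMG3 measured 9.98, 9.85 and 10.02 under GDC-0941, against 10.59, 10.56 and 10.62 in controls, 1.56-fold lower without overlap (log2 difference -0.64 ± 0.06 SE, adjusted p = 2.07e-05 in limma). PSMG4 measured 9.36, 9.24 and 9.24 under GDC-0941, against 9.55, 9.53 and 9.58 in controls, 1.21-fold lower (-0.28 ± 0.06 SE, adjusted p = 0.00365). The fall of PSMG4 rests on 1 of 5 probe sets: a second one, dimmer at a mean of 7.66, was higher by 0.40 (adjusted p = 0.00202 over all probe sets), and the other 3 did not pass. POMP, the further core assembly factor, which has no PSM symbol, measured 11.96, 11.87 and 11.89 under GDC-0941, against 12.27, 12.16 and 12.28 in controls. It was 1.26-fold lower without overlap (-0.33 ± 0.06 SE, adjusted p = 0.00128).

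Compared by class, 15 of 17 core genes fell (median -0.31), 11 of 17 cap genes (median -0.35), 2 of 3 activators (median -0.31) and 3 of 4 assembly factors (median -0.36). Over all genes 15.6% were called lower, and 29.4% of those with a mean of 10 or more were. The cap class, set by symbol, includes the base chaperones PSMD5, PSMD9 and PSMD10, none of which passed. GDC-0941 replicate 2 had the lowest median in each of these 4 classes, and it was the lowest treated array for most genes of high signal. Relative to each gene's control mean, the core median was -0.29, -0.41 and -0.33 on GDC-0941 replicates 1, 2 and 3, and the cap median was -0.24, -0.43 and -0.32. The activator median was -0.27, -0.38 and -0.26, and the assembly median -0.28, -0.42 and -0.38. The spread of a class over the 3 treated arrays was wider than the distance between the class medians. The classes share these arrays, however, so that spread does not measure how well class medians are told apart. The spread within a class was wider still, from -0.59 to -0.08 in the core and from -0.58 to 0.06 in the cap. The treated arrays varied by a median SD of 0.08 per gene, and the controls by 0.04.

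The zero of these differences depends on the normalization. The array carries 18 probe sets for hybridisation controls, transcripts that are added before hybridisation, and centring on them adds one amount to all genes of an array. Relative to the mean of the 6 arrays, these controls stood at -0.109, -0.182 and 0.036 on GDC-0941 replicates 1, 2 and 3. On control replicates 1, 2 and 3 they stood at 0.112, 0.073 and 0.070, so the amounts were uneven among the treated arrays. After this centring the median difference was 0.15 over all genes (-0.02 as deposited) and -0.14 over the proteasome genes (-0.31 as deposited). Relative to all genes the proteasome median was -0.29 both ways, which the construction fixes. With that centring 16 proteasome genes were lower (4.53% of all genes were) and 1 higher (28.8% of all genes were). These were 7 core genes, 6 cap genes, PSME3 and, in the assembly class, PSMG1 and PSMG3, with PSMG2 as the 1 that was higher. Of the 31 genes called lower, 14 were called lower in every alternative processing, namely PSMA5, PSMA7, PSMB5, PSMB6, PSMB9, PSMB10, PSMC4, PSMD1, PSMD6, PSMD11, PSMD12, PSME3, PSMG1 and PSMG3. Among these PSMB5, PSMB6, PSMB9, PSMB10, PSMC4, PSMG1 and PSMG3 have 1 probe set each. Alternatives in the choice of probe set leave their values unchanged and so could not check them.

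**Figure D3:**
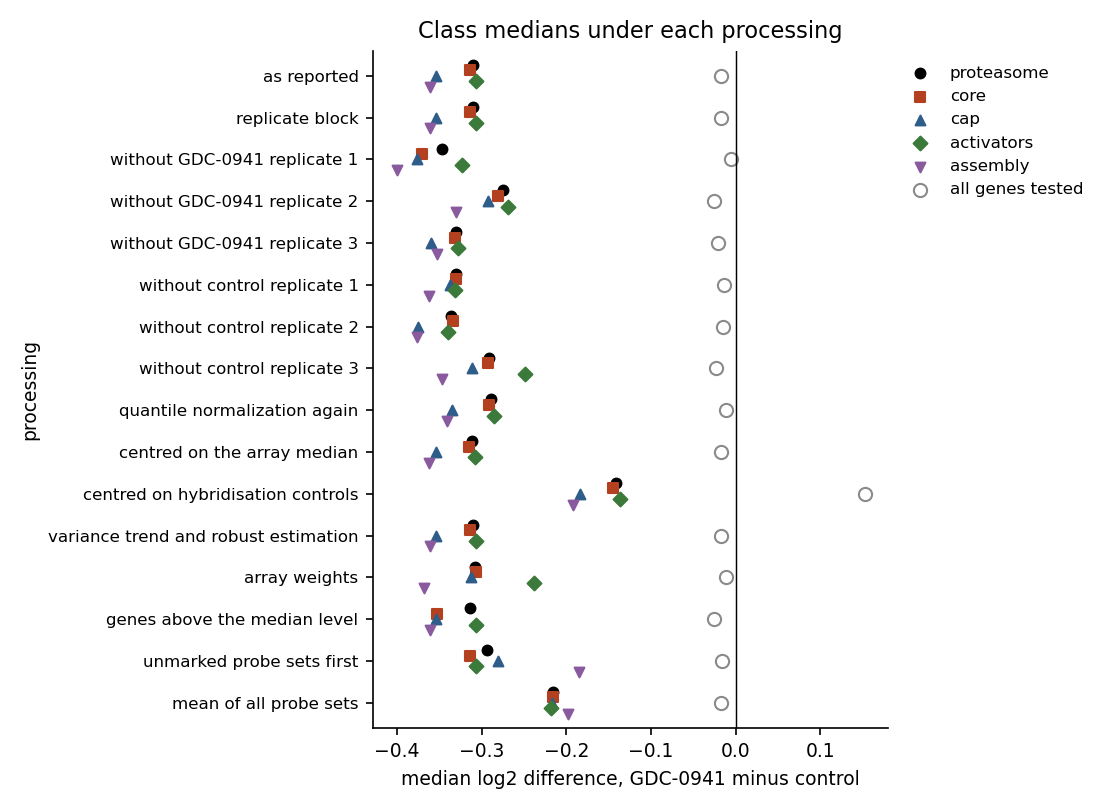
Median log2 difference, GDC-0941 minus control, of all proteasome genes and of each class under each processing (rows), with the median of all genes tested as open circles. The proteasome medians lie between -0.40 and -0.14, to the left of the open circle in every row, and all markers move right together where arrays are centred on hybridisation controls.

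The 42 genes were read by 81 probe sets annotated to them alone, 22 genes by several and 20 by 1. In a fit on all 54613 probe sets, 41 of the 81 were lower and 1 was higher, beside 9.89% lower and 8.88% higher over all probe sets. All of the 41 lay among the 67 with a signal above the median of all probe sets, and none of the 14 dimmer ones was called. Of the 39 probe sets that were not the brightest of their gene, 12 were lower. Among the 16 genes that fell and had several probe sets, every probe set fell for 5 (PSMA7, PSMD1, PSMD11, PSMD12 and PSME3) and a single one for 9. PSMD1 fell by 0.54 and 0.61 on its 2 probe sets, and PSMD12 by 0.58 and 0.63. PSMB4, which did not pass, had 1 of its 3 probe sets lower (-0.30), and the others differed by -0.08 each. Probe sets whose names carry an s or x mark can match several transcripts. Taking those without such a mark first gave 26 lower and 1 higher (13.8% of all genes lower). Averaging all probe sets gave 28 lower and none higher (15.3% of all genes lower). The single gene that was higher with unmarked probe sets first was PSMG4, by 0.40. PSMB1 had no call there, with a difference of 0.05 on its dim probe set. Genes with marked probe sets only, such as PSME3, PSMA7, PSMD1 and PSMD12, were read there as before, so that choice could not check them.

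**Figure D4:**
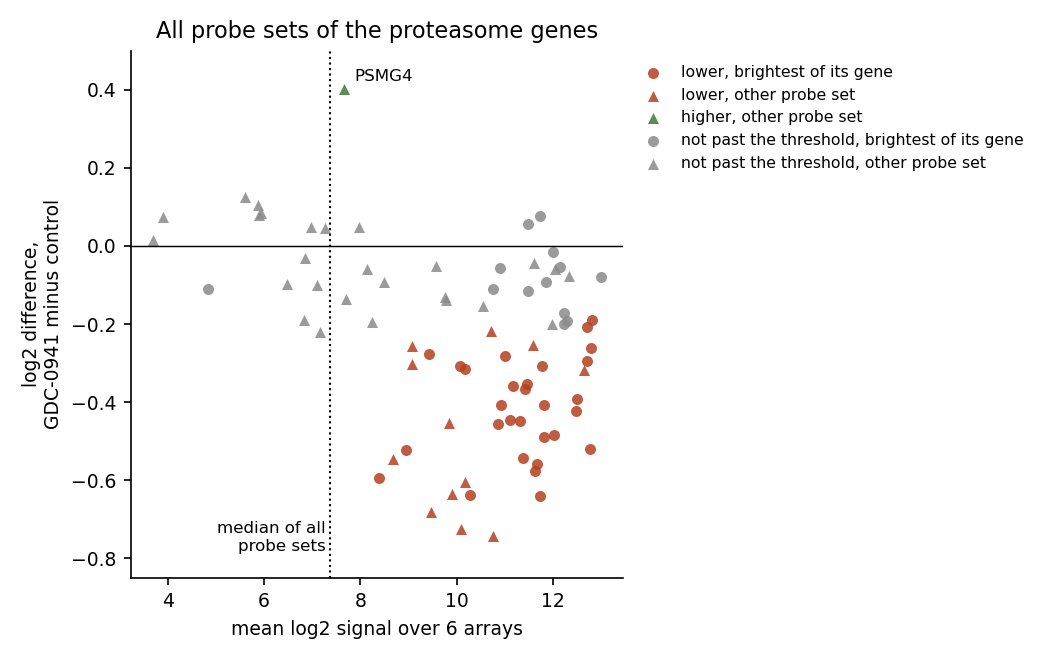
Each of the 81 probe sets of the 42 genes, by its mean log2 signal over 6 arrays and its log2 difference, GDC-0941 minus control (circles, brightest probe set of a gene; triangles, others; colour, call at an adjusted p of 0.05 in limma over all probe sets; dotted line, median signal of all probe sets). The 41 that fell all lie right of the dotted line, and the 1 that was higher belongs to PSMG4.

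Genes that work with the proteasome under other names were called in both directions, and their counts are to be read against the 15.6% of all genes lower and 12.1% higher. Of 12 partners, 4 fell and 2 rose, so that the share that rose was near that of all genes. ADRM1, a ubiquitin receptor of the cap, measured 10.61, 10.50 and 10.67 under GDC-0941, against 11.38, 11.31 and 11.40 in controls, 1.70-fold lower without overlap (log2 difference -0.76 ± 0.06 SE, adjusted p = 5.84e-06 in limma). USP14, a deubiquitinase bound to the cap, fell by 0.33 and POMP by 0.33, while PAAF1, a chaperone of the base, fell by 0.29. ECPAS, a scaffold that binds proteasomes, and ZFAND5, a zinc finger protein that activates them, rose by 0.19 each (adjusted p = 0.0242 and 0.0308). For both, all 3 treated arrays lay above the 3 controls. In the fit on all probe sets, 1 of the 4 probe sets of ECPAS was higher and none of the 5 of ZFAND5.

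Of 15 genes listed for ubiquitin supply, shuttling and the segregase VCP, 11 were measured, and 5 of them fell and 1 rose, beside 15.6% lower and 12.1% higher over all genes. VCP, an ATPase that extracts ubiquitinated proteins for the proteasome, measured 11.19, 11.06 and 11.14 under GDC-0941, against 11.62, 11.64 and 11.73 in controls, 1.45-fold lower (log2 difference -0.54 ± 0.06 SE, adjusted p = 5.26e-05 in limma). Its cofactor UFD1 measured 10.45, 10.27 and 10.44 under GDC-0941, against 11.03, 10.93 and 11.03 in controls, 1.52-fold lower (-0.61 ± 0.07 SE, adjusted p = 4.35e-05). The other cofactor, NPLOC4, fell by 0.42, so that all 3 members of that complex were lower. The 1 that rose, named after its value was seen, was the autophagy receptor SQSTM1 (0.40, adjusted p = 0.000254).

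Of 12 measured regulators linked to proteasome genes 3 fell and 3 rose, which with so few genes is not far from the 15.6% lower and 12.1% higher of all genes. NFE2L1 measured 11.37, 11.32 and 11.35 under GDC-0941, against 11.35, 11.29 and 11.31 in controls, with overlapping groups (log2 difference 0.03 ± 0.05 SE, adjusted p = 0.717 in limma). NGLY1, the enzyme that removes sugars from NFE2L1 on its way to activation, fell by 0.33, the related factor NFE2L3 by 0.30 and the heat shock factor HSF1 by 0.28, with adjusted p of 0.0023, 0.0112 and 0.0114. The 3 that rose, named after their values were seen, were MAFG (0.19), NFYC (0.22) and STAT3 (0.21). Array levels of these transcripts do not show the activity of the proteins. Of 8 measured genes of antigen processing and the interferon response 3 fell and 2 rose, with a median of 0.13, beside the same 15.6% lower and 12.1% higher over all genes. TAP1 and TAP2, neighbours of PSMB8 and PSMB9 on chromosome 6, fell by 0.21 and 0.18, and IRF1 fell by 0.19, while the peptide trimming enzymes ERAP2 and ERAP1 rose by 0.33 and 0.30 (adjusted p = 0.000839 and 0.00183). No probe set of TAP1 or TAP2 was called in the fit on all probe sets.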

How the data were processed

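T47D RNA was measured on 6 oligonucleotide arrays, 3 per group. The deposited table holds log2 signals of 54675 probe sets; per the submitters' processing notes the authors used RMA (background correction, normalization between arrays, summary per probe set), and the values, 3.00 to 14.81, lie on that scale. RMA's version and the chip definition were not given in the sources used here.

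Of 54613 probe sets other than manufacturer's controls, 41091 were annotated to 1 gene, 1801 to several and 11721 to none, and 41037 had their symbol brought up to date by Entrez identifier. The probe set with the highest mean stood for each of 19775 genes. Differences were tested by limma 3.58.1 under R 4.3.3 (GDC-0941 minus control, two-sided, Benjamini-Hochberg over all genes, adjusted p under 0.05), and the fit was tested on simulated data. Precision is limited by 3 arrays per group, and RMA values carry no detection call.

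Members, lists and motifs were chosen with earlier results of these data known. Values on every array are given for the catalytic, immune, activator, inhibitor and assembly genes and, in each class, for the 3 called genes with the largest change and the one with the smallest; of the other lists, for NFE2L1, POMP and the 3 called genes with the largest change, some by their difference only. Other genes named were chosen after their values were seen, as were the subgroups of the cap. Alternatives covered the arrays used, the replicate block, normalization, variance model, array weights, level filter, probe set choice and threshold.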

Additional observations from a re-analysis of the deposited data

How the results depend on the processing

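The count of 31 proteasome genes lower was 27 to 32, with none higher, when single arrays were left out, and 26 to 34 in the other alternatives with 1 probe set or value per gene, except for centring on hybridisation controls (16 lower, 1 higher). Counting PSMC3IP gave 32, and an adjusted p under 0.01 gave 27. Genes called in all, in either direction, were 4380 to 5326 when single arrays were left out. The share of all genes lower at an adjusted p under 0.01 is not given here. Under centring on hybridisation controls the medians were -0.14 over all proteasome genes, -0.14 in the core, -0.18 in the cap, -0.14 in activators and -0.19 in assembly, which follows from the single amount added per array. Leaving out arrays gave medians of -0.35 to -0.27 over all, -0.37 to -0.28 in the core, -0.38 to -0.29 in the cap, -0.34 to -0.25 in activators and -0.40 to -0.33 in assembly. Averaging all probe sets gave -0.22 over all, -0.22 in the core, -0.22 in the cap, -0.22 in activators and -0.20 in assembly. Unmarked probe sets first gave 1 higher, -0.28 in the cap and -0.18 in assembly. Array weights, whose estimate stopped before full convergence, gave 1 higher, 9411 genes called in all (5488 as reported) and -0.24 in activators. The cause of these shifts was not tested.

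Differences changed sign for PSMG4 with unmarked probe sets first (0.40) and with all probe sets averaged (0.050), and for PSMB1 with unmarked probe sets first (0.050). The other changes of sign were in genes without a call: with hybridisation controls PSMA8 (0.059), PSMB4 (0.089), PSMC6 (0.078), PSMD4 (0.12), PSMD9 (0.054), PSMD10 (0.058), PSME1 (0.15) and PSMF1 (0.11), and for PSME1 with quantile normalization again (0.029) and with array weights (0.0043). Leaving out single arrays gave -0.037 to 0.012 for PSME1 and -0.013 to 0.114 for PSMD5.

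The labels number the replicates alike in both groups, but same-numbered arrays did not deviate together (r = -0.35, 0.19 and -0.02), and GDC-0941 replicate 1 correlated most with control replicate 3 (r = 0.39). With the number as a replicate block 30 proteasome genes were lower and none higher, the call of PSMC1 was lost, and 4932 genes were called in all.

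With 3 arrays per group, differences of about the size of PSMD2 (-0.17 ± 0.06 SE) lie at the edge of what passed. Probe sets near background say little about their transcripts, and the array cannot show whether protein or proteasome activity changed. Fewer transcripts per cell and a change of the other transcripts cannot be told apart in values normalized to a common distribution.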

Other observations

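Genes with names that start like those of proteasome genes were looked at after the values were seen. Of the 8 measured symbols of this kind, 6 are antisense or divergent noncoding transcripts, and 2 of these 6 were called higher, beside 12.1% of all genes. PSMA3-AS1 measured 9.64, 9.40 and 9.40 under GDC-0941, against 9.24, 9.28 and 9.25 in controls, and was higher by 0.22 ± 0.07 on the log2 scale (SE, adjusted p = 0.0381 in limma), while PSMA3 was lower by 0.52. PSMG3-AS1 measured 8.15, 8.15 and 8.18 under GDC-0941, against 8.05, 7.94 and 8.001 in controls, and was higher by 0.16 ± 0.06 (SE, adjusted p = 0.0484), while PSMG3 was lower by 0.64. The only probe set of PSMG3-AS1 did not pass in the fit on all probe sets. The other 4 did not pass, with differences of -0.10 to 0.08, and 3 of them lay below the median signal of all probe sets. Of the 2 protein-coding genes left out, PSMC3IP fell by 0.30 (adjusted p = 0.0015) and PSME3IP1, which encodes a partner of PSME3, differed by -0.09 without passing.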
